A study of Vulpes lagopus with 12 samples.

Results

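The genes described here were grouped as drug-metabolising enzymes under the receptors CAR and PXR, as measured in blood of the Arctic fox (Vulpes lagopus). The group also names a transporter and the genes of the receptors themselves. Whether each member answers to CAR or PXR was not tested. The set named 10 genes, and members were all probe sets whose single gene symbol in the probe annotation was one of them. This gave 10 probe sets for 7 genes, of 42924 probe sets and 15115 genes in all: CYP2E1, CYP3A26, CYP2B6, ABCB1, POR, ALAS1 and NR1I3. CYP3A12, CYP2C21 and NR1I2, the gene of PXR, had no probe set with that symbol alone and were skipped. A further 2 probe sets that list more than 1 CYP3A symbol were not used. POR was read by 3 probe sets, CYP2B6 by 2 and each other gene by 1.

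The arrays were Affymetrix Canine Genome 2.0, whose probes were designed on dog sequence. There were 11 arrays labelled as blood cells of Arctic foxes without further description, called foxes 1 to 11 in series order. The remaining array is titled as a canine control and carries the same organism, source and tissue labels. The design statement asks whether the fox blood cells held polychlorinated biphenyls (PCBs) or mercury, but the labels give no exposure, age or treatment of any fox, so the foxes form 1 group. Nothing states that the 11 samples came from 11 animals, and p-values then measure only the spread between these samples. The control had no replicate, so its species, tissue, RNA quality and array preparation cannot be told apart in any difference from the foxes.

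CAR (NR1I3) and PXR (NR1I2) are nuclear receptors of liver and gut that sense foreign chemicals, certain PCBs among them, and pair with RXR on DNA. Their targets include cytochromes P450 of the CYP2B, CYP2C and CYP3A families, which oxidise drugs and pollutants, the efflux pump ABCB1, and ALAS1, which starts the haem synthesis that new P450 protein needs. POR passes electrons from NADPH to the microsomal P450s. White blood cells are known for little P450 expression, while ABCB1 is found on some lymphocytes and ALAS1 and POR act in most cells.

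Levels are log2 values, in which each unit is a factor of 2. A probe set was called when the adjusted p from limma, fitted over all 42924 probe sets with Benjamini-Hochberg adjustment, was under 0.05. On the control array 8 of the 10 probe sets were called higher than in the foxes, against 18.9% of all probe sets, and 1 was called lower, against 42.1%. The 8 higher ones also lay above all 11 foxes, as did 21.9% of all probe sets. Read as genes, with the brightest probe set standing for each gene, 7 of 7 were higher, against 18.5% of all genes. Their median difference was 5.05, beside −0.53 over all genes. Over the 10 probe sets the median was 2.33, beside −0.46 over all probe sets. With each gene's probe sets averaged, the median of the 7 genes was 3.31. The set had been put together with results of these arrays known, so its counts are a description.

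**Figure D1:**
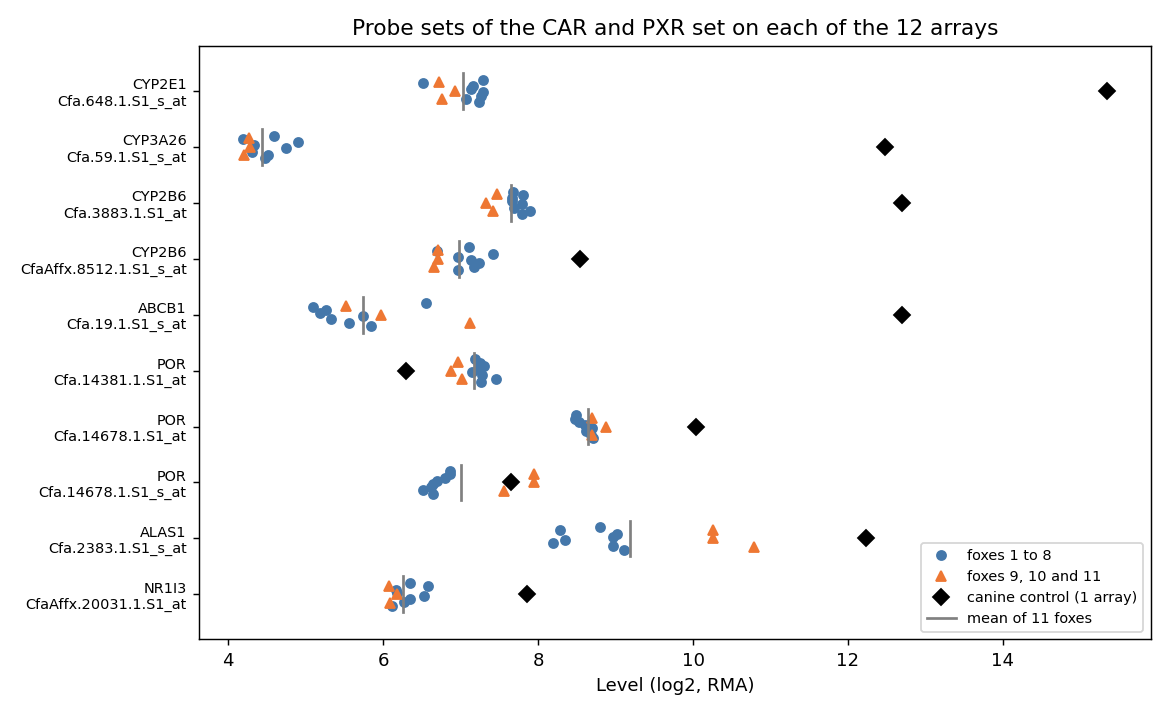
Level (log2, horizontal axis) of each of the 10 probe sets (vertical axis) on every array: circles are foxes 1 to 8, triangles foxes 9, 10 and 11, diamonds the single canine control and grey bars the mean of the 11 foxes. The control lies to the right of every fox in 8 rows, to the left in the first POR row and among the foxes in the last POR row.

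NR1I3, the receptor CAR itself, was even over the foxes and somewhat higher on the control. Its level ran from 6.08 to 6.58 with a median of 6.18 over the foxes, a mean of 6.26 ± 0.17 (SD, n = 11), and stood at 7.86 on the control. The control minus fox difference was 1.60 (SE 0.19, limma adjusted p = 2.06e-05), and the control lay 1.28 above the highest fox.

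CYP2E1, a liver P450 that oxidises ethanol and small solvents, showed the largest difference of the set. The fox levels ran from 6.52 in fox 2 to 7.29 in fox 1 with a median of 7.13, and the control stood at 15.35. All foxes lay within 0.77 of each other and the control lay 8.06 above the highest. The mean was 7.03 ± 0.26 (SD, n = 11) in the foxes, and the difference was 8.31 (SE 0.26, limma adjusted p = 5.76e-11).

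CYP3A26, a dog member of the main drug-oxidising P450 family, was low in the foxes and far higher on the control. Its level ran from 4.18 in fox 2 to 4.90 in fox 3 with a median of 4.33, a range of 0.71, against 12.47 on the control. The difference was 8.04 (SE 0.24, limma adjusted p = 2.76e-11). Dog CYP3A genes are close copies, and the suffix of this probe set marks probes that can match several transcripts, so its signal may not be from CYP3A26 alone. Of the 10 probe sets 6 carry that suffix.

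CYP2B6, named here by the human symbol for the P450 most closely tied to CAR, was read by a pair of probe sets that differed in size but not in direction. For Cfa.3883.1.S1_at the foxes ran from 7.32 to 7.90 with a median of 7.67 and the control stood at 12.70, a difference of 5.05 (SE 0.19, limma adjusted p = 3.31e-10). For CfaAffx.8512.1.S1_s_at the foxes ran from 6.66 to 7.41 with a median of 6.97 and the control stood at 8.54, a difference of 1.57 (SE 0.26, limma adjusted p = 0.000398). The control lay above every fox on both. Averaged over both probe sets, CYP2B6 differed by 3.31.

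ABCB1, the P-glycoprotein pump that carries drugs out of cells, was the member in which single foxes stood out most. Fox 11 stood at 7.12 and fox 1 at 6.55, while the other 9 foxes lay between 5.09 and 5.98. The control stood at 12.70, which is 5.58 above fox 11. Over the foxes the mean was 5.74 ± 0.62 (SD, n = 11), and the difference was 6.96 (SE 0.59, limma adjusted p = 9.89e-07). Lymphocytes are known to carry this pump, so the summed signal of marker genes was set beside it. For the 8 of 10 measured NK and cytotoxic markers the log2 of the summed signal was 11.32 in fox 11 and 10.32 in fox 1, within a range of 10.24 to 12.41 over the foxes. For the 9 of 10 measured T cell markers it was 12.91 in fox 11 and 11.76 in fox 1, within a range of 11.54 to 12.97 over the foxes. The part of these cells in the ABCB1 values was not tested.

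POR, the electron donor of the P450s, gave a different answer on each of its 3 probe sets. On Cfa.14678.1.S1_at the foxes were tightly grouped, from 8.48 to 8.88 with a median of 8.68, and the control was higher at 10.04, a difference of 1.40 (SE 0.14, limma adjusted p = 6.59e-06). After quantile normalization again this was 0.64 and still called (limma adjusted p = 0.00378). On Cfa.14381.1.S1_at the foxes ran from 6.87 to 7.45 with a median of 7.22 and the control was lower at 6.29, a difference of −0.89 (SE 0.18, limma adjusted p = 0.00162). This was the single probe set of the 10 called lower, and it was still lower with arrays centred on their medians (−0.62, limma adjusted p = 0.00881). On Cfa.14678.1.S1_s_at, designed on the same target as the first, the foxes ran from 6.52 to 7.95 with a median of 6.80 and the control at 7.65 fell inside them (difference 0.64, SE 0.52, limma adjusted p = 0.291). Without foxes 9, 10 and 11 that difference was 0.94 and was called (limma adjusted p = 0.000414). Averaged over its probe sets, POR differed by 0.38 and was not called (limma adjusted p = 0.0588). A direction for POR as a gene therefore rests on which probe set is read.

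ALAS1, the haem synthesis enzyme of all tissues but maturing red cells, had the widest spread over the foxes of any probe set here. Foxes 1 to 8 ran from 8.19 in fox 6 to 9.11 in fox 8 with a median of 8.89, foxes 9 and 10 both stood at 10.26, and fox 11 stood at 10.79. The control, at 12.24, lay 1.45 above fox 11. The mean over the foxes was 9.18 ± 0.88 (SD, n = 11), and the difference was 3.05 (SE 0.83, limma adjusted p = 0.00771), or 3.53 without foxes 9, 10 and 11 (limma adjusted p = 1.46e-05). Its red cell counterpart ALAS2 went the other way on the control, from 13.23 ± 1.53 (SD, n = 11) in the foxes to 6.57. Within foxes 1 to 8 ALAS2 lay between 10.89 and 14.95, and within foxes 9, 10 and 11 between 13.74 and 15.05, so that the 2 sets of foxes overlapped in ALAS2 and not in ALAS1.

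**Figure D2:**
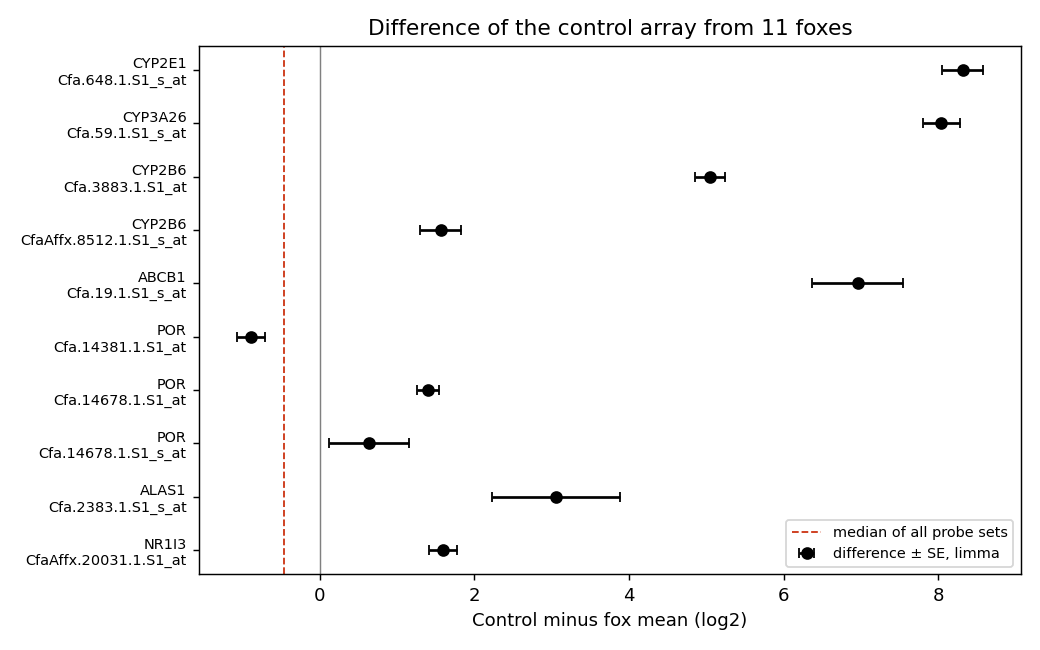
Control minus fox mean (log2, horizontal axis) for each of the 10 probe sets, with bars of 1 SE from limma; the dashed line is the median of all probe sets, −0.46. CYP2E1 and CYP3A26 lie beyond 8, while the 3 POR probe sets lie at −0.89, 1.40 and 0.64.

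The spread among the foxes was larger for ABCB1, ALAS1 and 1 POR probe set than for the P450s and NR1I3. SDs over the 11 foxes ran from 0.12 (POR, Cfa.14678.1.S1_at) to 0.88 (ALAS1), with a median of 0.25 beside 0.22 over all probe sets. Those of the 4 P450 probe sets ran from 0.18 to 0.26, on both sides of that value, and NR1I3 had 0.17. Of the 10 probe sets 3 had an SD of 0.5 or more, beside 14.8% of all probe sets: ALAS1 (0.88), ABCB1 (0.62) and POR Cfa.14678.1.S1_s_at (0.54). Within foxes 1 to 8 none of the 10 reached it (7.0% of all probe sets did), and the SD of ALAS1 was 0.38, that of ABCB1 0.48 and that of the POR probe set 0.12. The spread between foxes was not tested, as the labels put them in 1 group.

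Foxes 9, 10 and 11 are set apart here because they differ from the others on an array quality control, the GAPDH 3' minus middle signal, which was 0.42 to 1.08 in them. It was 2.56 to 3.19 in the other 8 foxes, and −0.08 for the control. The control thus lay below every fox on this measure, and the part of RNA quality in its differences from the foxes was not tested. In 4 of 10 probe sets these foxes did not overlap the other 8, beside 27.2% of all probe sets. They lay above in ALAS1 and in POR Cfa.14678.1.S1_s_at (7.56 to 7.95 against 6.52 to 6.86), as in 12.6% of all probe sets. They lay below in CYP2B6 Cfa.3883.1.S1_at (7.32 to 7.47 against 7.66 to 7.90) and in POR Cfa.14381.1.S1_at (6.87 to 7.02 against 7.15 to 7.45), as in 14.6%. The same foxes had more summed signal of monocyte markers (log2 of 15.25 to 15.53 against 13.82 to 15.04, 6 of 8 markers measured), of T cell markers (12.60 to 12.97 against 11.54 to 12.42) and of NK and cytotoxic markers (11.32 to 12.41 against 10.24 to 10.80). Neutrophil (15.81 to 16.70 against 14.47 to 16.20), erythroid (13.86 to 15.11 against 11.62 to 15.04) and B cell markers (9.94 to 10.27 against 10.11 to 10.29) overlapped. A sum of unlogged values follows the brightest genes of its list, and not every marker moved with its sum. GZMB (9.89 to 11.48 against 6.91 to 8.57) and LCK (8.50 to 8.88 against 6.35 to 7.10) also lay higher. PRF1 (6.37 to 6.66 against 6.59 to 6.86) and CD5 (8.28 to 8.38 against 8.11 to 8.59) overlapped, as did CSF1R. Neither the part of these cells nor that of RNA quality in the ALAS1 and POR values was tested. In bulk blood, fewer cells of a type and less RNA per cell cannot be told apart.

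**Figure D3:**
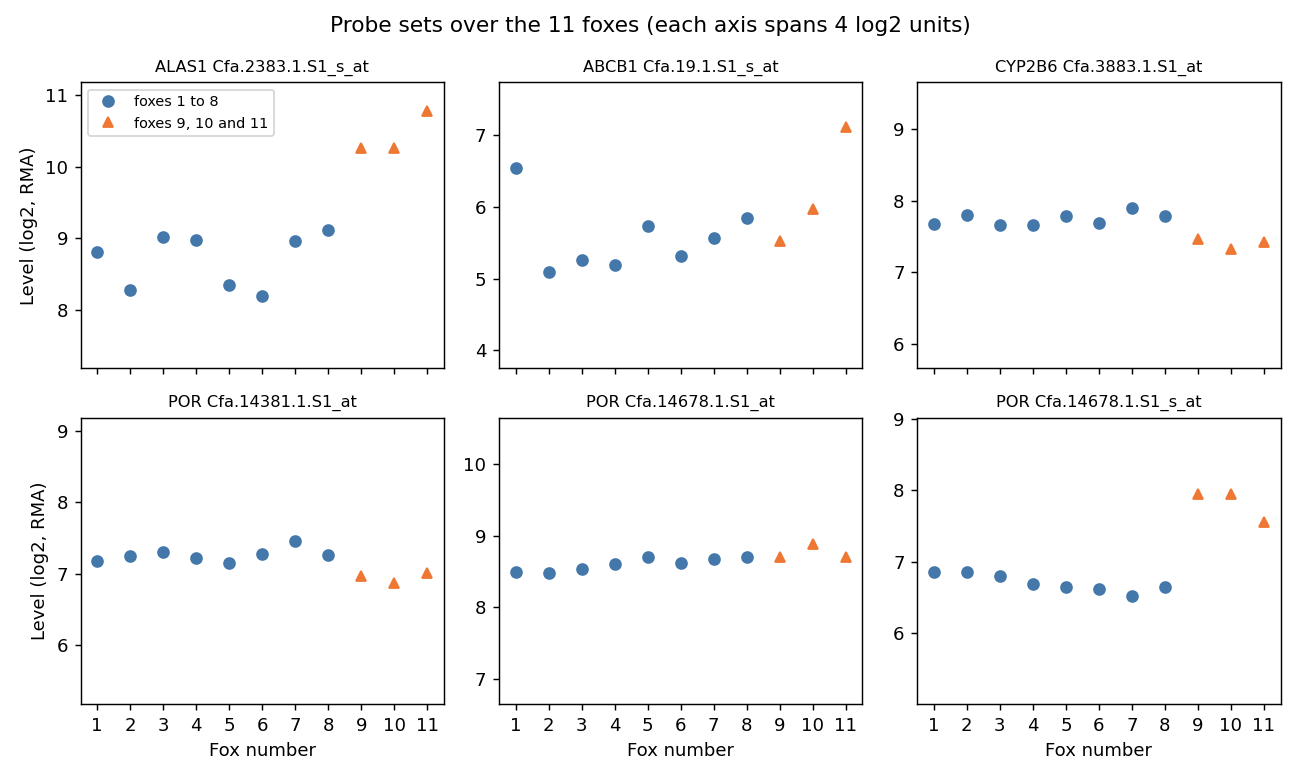
Level (log2, vertical axis) of 6 probe sets in each fox (horizontal axis, fox number, which has no order in time or dose); every panel spans the same 4 log2 units. ALAS1 and POR Cfa.14678.1.S1_s_at are higher in foxes 9, 10 and 11 (triangles) than in foxes 1 to 8 (circles), ABCB1 is high in foxes 1 and 11, and the other 3 panels vary by at most 0.58.

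Genes with the most similar pattern were looked up for ALAS1 and ABCB1, the genes whose leading probe set had an SD of at least 0.5, by Pearson's r over foxes 1 to 8 among 1391 genes with an SD of at least 0.5 within those foxes, symbols of unnamed loci and reading frames left out. The measure is a description over 8 arrays that share their normalization. For ALAS1 the nearest were PTPN9 (r = 0.94), a tyrosine phosphatase, and INTS10 (0.92) and INTS14 (0.90), subunits of the Integrator complex. In foxes 9, 10 and 11, which the measure did not use, all 3 of these genes lay above foxes 1 to 8 as ALAS1 did, for example PTPN9 at 10.46 to 10.67 against 8.08 to 9.46. So did 35.5% of the 1391 genes they were picked from. For ABCB1 the nearest were ABI2 (0.83), IRX5 (0.70) and MCM8 (0.69). Within foxes 1 to 8 ABCB1 stood at 6.55 in fox 1 and at most at 5.85 in the others, so 1 array weighs heavily in these r values. ABI2 did not share the high ABCB1 level of fox 11: it reached 9.78 at most in foxes 9, 10 and 11, against 11.55 in foxes 1 to 8.

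Around the set, 106 of 130 listed genes of the same pathway were measured, in 5 lists. On the control 40 were called higher and 32 lower and 34 were not called, beside 18.5% higher and 44.6% lower over all genes. The higher calls were large, with a median difference of 4.08 and a range of 1.18 to 8.40. The lower calls were small, with a median of −0.76 and a range of −1.49 to −0.48. Some of them rest on reading the brightest probe set. Averaged over their probe sets, PON1 went from −1.05 to 2.56 and EGFR from −0.55 to 1.95. Centring each array on its median gave 43 higher and 15 lower, while all genes moved from 2799 higher and 6748 lower to 3180 and 3923, the median over all genes moving from −0.53 to −0.26.

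Among the receptors' partners and coregulators, 2 of 20 genes were higher and 9 lower, with a median of −0.47 (2 and 4 with centred arrays, 2 and 10 after quantile normalization again). NR1H4, the bile acid receptor FXR, had a fox mean of 6.29 ± 0.29 (SD, n = 11) and a control level of 13.06, which gave a difference of 6.78 (SE 0.29, limma adjusted p = 1.06e-09). FOXO1, a forkhead factor that binds CAR and PXR, was higher by 1.85. The vitamin D receptor VDR, which shares DNA sites with PXR, differed by −1.32. RXRG, a DNA partner of both receptors, differed by −0.95 and was not called with centred arrays (limma adjusted p = 0.0507). The most variable over the foxes were DNAJC7, a chaperone that holds CAR in the cytoplasm (SD 1.36), and the phosphatase subunit PPP2CA (SD 1.22). Both lay higher in foxes 9, 10 and 11 (9.70 to 10.11, and 12.26 to 12.97) than in foxes 1 to 8 (6.20 to 8.85, and 9.34 to 11.10). Here and in the lists below, variable genes were picked by their SD over all 11 foxes. A gap between these sets of foxes raises that SD, so such separations are a description only. Of all probe sets, 27.2% lay apart in either direction.

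Of the 8 electron transfer and membrane partners, 2 were higher and 3 lower (3 and 1 with centred arrays, 2 and 1 after quantile normalization again), with a median of −0.11 that turned to 0.16 with centred arrays. PGRMC1, a haem-binding partner of P450s, was higher on the control by 4.52 (SE 0.56), and the steroid reductase HSD11B1 by 4.45 (SE 0.27). H6PD, which supplies NADPH inside the endoplasmic reticulum, differed by −0.70. The reductase CYB5R1 differed by −0.95 and was not called with centred arrays (limma adjusted p = 0.0668). Averaged over its probe sets CYB5R1 turned to 0.27. CYB5B had an SD of 0.81 over the foxes and PGRMC1 one of 0.59.

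Other enzymes of the first, oxidising or hydrolysing step were higher for 15 of 34 genes and lower for 6, with a median of 1.44 (0.51 after quantile normalization again). The alcohol dehydrogenase ADH4 had a fox mean of 6.16 ± 0.17 (SD, n = 11) and a control level of 14.05, which gave a difference of 7.90 (SE 0.19, limma adjusted p = 3.99e-12). The carboxylesterase CES1 was higher by 7.29, the retinal dehydrogenase ALDH1A1 by 5.32 and the amine oxidase MAOB by 4.75. Averaged over 4 probe sets, ADH4 differed by 4.10. Of these enzymes DPYD, which degrades pyrimidines, varied most over the foxes (SD 1.58), with 7.61 to 9.26 in foxes 1 to 8 against 11.14 to 11.84 in foxes 9, 10 and 11. XDH followed (SD 0.98).

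Conjugating enzymes were higher for 13 of 22 genes and lower for 5, with a median of 2.44 (13 and 2 with centred arrays, 12 and 2 after quantile normalization again). The sulfotransferases SULT1D1 and SULT1B1 were higher by 7.54 (SE 0.16) and 7.35 (SE 0.25). UGDH, which makes the sugar donor for glucuronidation, was higher by 5.85 (SE 0.18), and the membrane glutathione transferase MGST1 by 5.48 (SE 0.74). Over the foxes UGP2 had an SD of 1.20 and GSTK1 one of 0.87. Both lay higher in foxes 9, 10 and 11 than in foxes 1 to 8.

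Drug transporters were higher for 8 of 22 genes and lower for 9, with a median of −0.52 (8 and 3 with centred arrays, 7 and 4 after quantile normalization again). The peptide carrier SLC15A1, which is also 1 of the enterocyte markers, was higher by 8.40 (SE 0.17), the efflux pump ABCG2 by 4.78 (SE 0.55), the organic anion uptake carrier SLCO1B3 by 4.63 (SE 0.20) and ABCC2, a pump of the bile canaliculus and a PXR target, by 3.93 (SE 0.20). Averaged over its 3 probe sets ABCC2 differed by 2.08. Over the foxes ABCC4 (SD 0.63) and ABCG2 (SD 0.57) varied most, ABCC4 lying lower and ABCG2 higher in foxes 9, 10 and 11 (5.39 to 6.22, and 8.47 to 9.15) than in foxes 1 to 8 (6.60 to 7.48, and 7.29 to 7.94).

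**Figure D4:**
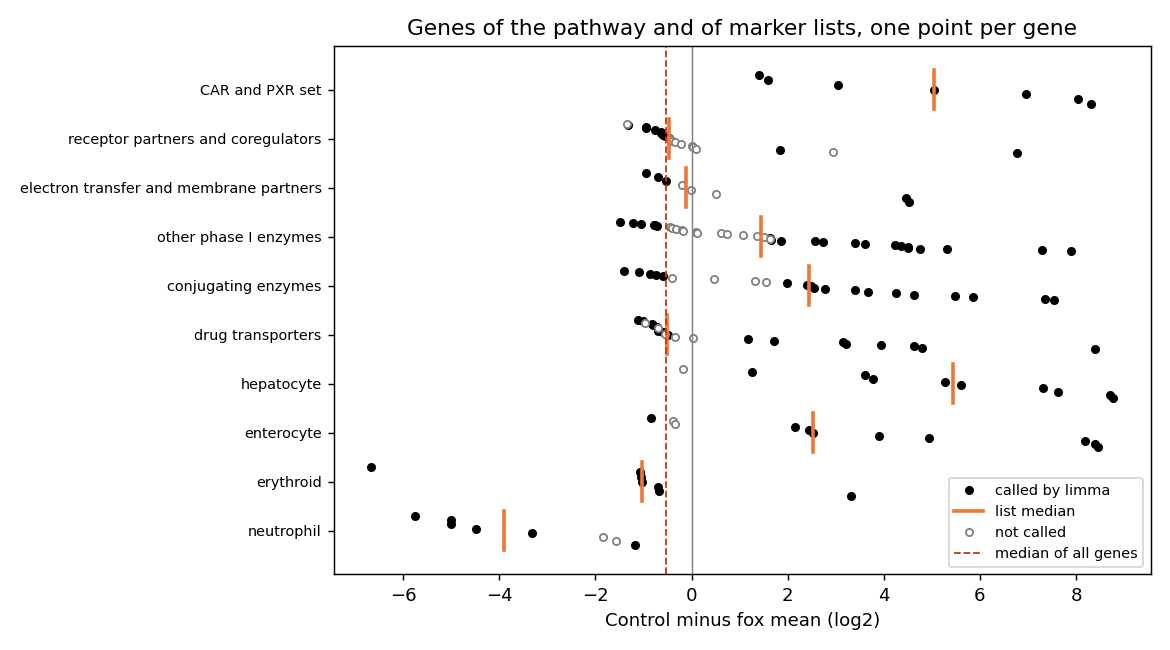
Control minus fox mean (log2, horizontal axis) of every measured gene, one point each, in the CAR and PXR set, the 5 pathway lists and 4 marker lists (vertical axis); filled points were called by limma, orange bars are list medians and the dashed line is the median of all genes, −0.53. The set's median (5.05) lies near that of the hepatocyte markers (5.43), and the neutrophil markers lie lowest (−3.91). With each gene's probe sets averaged, the set's median was 3.31 and that of the hepatocyte markers 4.90.

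Marker genes of liver and gut, and some of the kidney tubule, moved on the control array with the set. Of 10 measured hepatocyte markers 9 were higher and 0 lower, with ALB at 8.71 (4.03 averaged over its 3 probe sets), and the log2 of their summed signal was 16.79 on the control against 10.06 to 10.51 in the foxes. Of 11 measured enterocyte markers 8 were higher and 1 lower, with the sucrase SI at 8.20, and the sum was 16.37 against 10.71 to 10.90. Without SLC15A1, the 1 gene shared with the pathway lists, 7 of 10 were higher and the sum was 16.26 against 10.69 to 10.89. Kidney tubule markers were 3 higher and 6 lower of 10 (3 and 3 with centred arrays, 3 and 2 after quantile normalization again, 4 and 4 with probe sets averaged, where the median turned from −0.72 to 0.17). Their sum was 14.29 on the control against 12.97 to 13.60 in the foxes. The brightest of these markers in the foxes was CDH16 (12.48 to 13.31, against 10.85 on the control). On the control CUBN (13.31) and UMOD (12.71) were brightest, so the sum rests on different genes on each side. The higher kidney markers were CUBN (6.55), UMOD (4.71) and LRP2 (1.78), and the lower ones ran from −1.96 (CDH16) to −0.69 (PAX8). Averaged over probe sets, CUBN differed by 4.55, UMOD by 1.79 and LRP2 by 0.30. Adrenal cortex markers were 0 higher and 2 lower of 5. Lower calls, which 44.6% of all genes also had, came to 6 of 8 for neutrophils (6 with centred arrays, 7 after quantile normalization again) and 6 of 7 for the erythroid line (5 under both). They came to 7 of 7 for B cells, but to 3 under both scalings. For monocytes they were 3 of 6 (5 after quantile normalization again), for T cells 4 of 9 and for NK cells 3 of 8, near that share of all genes as deposited. Fewer of all genes were called lower under both scalings, so 44.6% is no measure for the counts given there. The B cell median was −0.70 as deposited, −0.44 with centred arrays and −0.43 after quantile normalization again. The erythroid median was −1.03, −0.77 and −0.80 in the same order. Over all genes these medians were −0.53, −0.26 and −0.41. Of the erythroid markers called lower, ALAS2 differed by −6.66, and the others ran from −1.08 (EPB42) to −0.67 (TFRC). The neutrophil protein S100A8, abundant in blood, had a mean of 14.39 ± 0.79 (SD, n = 11) in the foxes and a level of 8.64 on the control array. Higher calls among blood cell markers were HEMGN of the erythroid list (3.32) and CD3G of the T cell list (1.12), the latter not called after quantile normalization again (limma adjusted p = 0.051). No marker can read 0 on this log2 scale. The part of these organs' RNA in the difference of any single gene was not tested. Over the foxes, hepatocyte sums stayed within 0.45 of each other, and the P450 and NR1I3 levels within 0.77.

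The median level of an array was 7.06 to 7.17 for the foxes and 6.85 for the control. The table gives no detection call, so how much of a low level such as that of CYP3A26 in the foxes is background is unknown, and the number of arrays limits the precision. Of the 10 probe sets, 6 had a mean over all arrays below that of the median probe set.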

How the data were processed

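Per the submitters' processing notes, the deposited log2 values were made by the authors with RMA, which corrects background, equalises array distributions and summarises each probe set, run in Affymetrix Expression Console. No version is given in the sources used here, nor whether RMA took all 12 arrays at once. The table held 43035 probe sets from 3.23 to 15.64 with 0 missing values. After removal of 111 Affymetrix control probe sets 42924 were tested, of which 29254 had 1 gene symbol in the platform annotation, 439 several and 13231 none. The Arctic fox RefSeq annotation held 3 of the 7 gene symbols (ABCB1, ALAS1 and NR1I3). Positions are left out because the probes were made for the dog.

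The control was compared with the 11 foxes by limma 3.58.1 (lmFit and eBayes) in R 4.3.3, a fit that gives the control the foxes' spread. With 1 array against 11, the smallest p of an exact permutation test is 0.0833. On simulated arrays with the foxes' means and SDs, limma recovered 77 of 100 shifts of 2 and 93 of 100 of 4 among 42924 probe sets. There the control had the foxes' spread and most probe sets were unshifted. The real control's spread is unknown, so the simulation cannot show how far its calls hold. A list's summed signal is the log2 of the sum of its genes' unlogged values. Per list, named genes were up to 4 with the largest called difference and up to 2 with the largest SD, and all members are named. Some further genes are named where a setting changed their direction or call. Members, lists and the separate treatment of foxes 9, 10 and 11 were chosen with earlier results of these data known. CYP3A12, CYP2C21 and NR1I2 were not analysed here. Alternatives were a filter on low means, quantile normalization again, centring on array medians, trend and robust eBayes, a minimum absolute difference of 1, the fox range in place of limma, averaging a gene's probe sets, other measures of spread, and leaving out foxes.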

Additional observations from a re-analysis of the deposited data

How the results depend on the processing

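Each of the 10 probe sets kept its direction in every setting in which it was measured, and the calls changed in 2 of 174 comparisons: POR Cfa.14381.1.S1_at missed an absolute difference of 1, and POR Cfa.14678.1.S1_s_at was called without foxes 9, 10 and 11. With probe sets of low mean left out, 4 of the 10 remained, so that 4 probe sets and 4 genes were higher and 0 probe sets lower, and 21 pathway genes were higher. The filter leaves fewer to test and takes the mean of all 12 arrays: CYP2E1 and 4 of the 21 pathway genes, FOXO1, ALDH1A1, TPMT and NNMT, had a fox mean not above its level of 7.12 and passed through the control alone, so these counts support no direction. With an absolute difference of at least 1 there were 0 lower probe sets and 8 lower pathway genes, and with arrays centred on their medians 15 lower pathway genes. When a gene's probe sets were averaged 6 of 7 genes were higher, and CYB5R1 turned to 0.27. Other pathway genes called lower turned too: PON1 to 2.56, EGFR to 1.95, PPARGC1A to 0.54 and NCOA2 to 0.20. The count of probe sets with an SD of at least 0.5 went from 3 to 0 at an SD of at least 1, to 1 with the median absolute deviation and to 0 without foxes 9, 10 and 11; without single foxes it was 2 or 3. The cause of these changes between settings was not tested. Low signal without a detection call limits every fox level. No paired analysis was possible because the labels carry no replicate numbers and the control is 1 array.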
